A study of Oryza sativa with 4 samples.

Results

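WRKY24, WRKY51, WRKY71 and WRKY62 are 4 rice genes of the WRKY family of transcription factors, and their transcripts were measured by 5 probe sets, WRKY71 by 2 and each of the others by 1. The genes were found by symbol or synonym among the 17905 genes that have a probe set of their own on the array, and their probe sets were taken out of 57381. In the gene table WRKY24 is also called WRKY8, WRKY71 also wrky38 and WRKY62 also XB10. The genes were chosen by the measured difference of their array signals between the groups described here, so their own differences are given as values without a test.

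The samples were leaves of Oryza sativa cv Nipponbare, 2 labelled OsRR6 overexpressor and 2 labelled empty vector control, with a separate single-colour array for each. Overexpressor plants carried the construct pActnos/Hmz-OsRR6 and control plants the same construct without OsRR6, pActnos/Hmz. All were of the T0 generation, raised from callus under hygromycin selection, grown hydroponically to heading and sampled at an age of 75 days after germination, in days of 12 h light (30 °C) and 12 h dark (25 °C). The labels do not say whether the 2 samples of a group came from separate plants or transformation events, so the p-values reflect the spread between the samples measured, and this may be only technical. OsRR6 belongs to the type-A response regulators, proteins that dampen the response to the hormone cytokinin. The study set plants with the OsRR6 construct against plants with the empty vector.

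WRKY proteins bind W-box elements in promoters and act downstream of immune receptors and mitogen-activated protein kinases in plants. In rice, WRKY24, WRKY51 and WRKY71 are known from the aleurone of the grain, where they repress genes that gibberellin induces, such as alpha-amylase genes, and WRKY24 also represses abscisic acid responses. WRKY62 is known from leaves, where it binds the immune receptor XA21 and dampens defence. WRKY71 is also induced by pathogens in leaves, and WRKY62, WRKY71 and WRKY76 belong to the same subgroup of the family, group IIa.

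Values are array signals on the linear scale of the deposited table, whose mean after trimming 2% at each end was between 500.06 and 500.07 on every array. The background level, the 95th percentile of 69 control probe sets for transcripts from other organisms, was 43.4 and 39.2 on the overexpressor arrays and 30.0 and 36.8 on the control arrays. Log2 changes are overexpressor minus control, computed after adding 3.6 to each signal, so that changes of dim transcripts come out too small. The arrays of a group correlated at 0.975 (overexpressor) and 0.988 (control) over the tested log2 values, and arrays of different groups at 0.931 to 0.938. The probe set of the overexpressed gene, RR6, read 2264 and 1989 on the arrays labelled overexpressor and 2559 and 2733 on the control arrays, a log2 change of -0.32 (SE 0.10, adjusted p = 0.0597, limma). It was not raised as the label has it, and it passed as lower after median centring (-0.42, adjusted p = 0.0223). The same held when only the brightest 25% of probe sets were tested (adjusted p = 0.0496). Without overexpressor replicate 1 the log2 change of RR6 was -0.41. After spike scaling, which sets the arrays to the hybridisation controls, the value was -0.0022 (adjusted p = 0.989). Where this probe set lies in the transcript is not known here, and one that lies outside the part carried by the transgene is no check of it. Directions below follow the group labels. The number of arrays limits the precision, and with 2 arrays a group the smallest two-sided p of an exact permutation test is 0.33. Leaving out 1 array leaves 1 in its group, so the spread then comes from the other pair alone. The median gap of a pair on the log2 scale was 0.20 in the overexpressor and 0.12 in the control. Calls gained or lost in that way therefore also depend on which pair was left.

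WRKY24, WRKY51 and WRKY71 had lower signals on the overexpressor arrays and WRKY62 had a higher one. In all 5 probe sets the groups did not overlap. The 4 probe sets of the lower genes lay below both control arrays on both overexpressor arrays, a pattern found in 28.3% of all 28629 tested probe sets, and the WRKY62 probe set lay above them on both, as did 39.7% of those tested. All 5 passed the filter on low signal and lay far above background, with signals between 11.9 times the background level (WRKY24 on overexpressor replicate 1) and 303 times (the brighter WRKY71 probe set on control replicate 1). In bulk leaf RNA, fewer cells of a type and less RNA per cell cannot be told apart.

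WRKY24, a repressor of gibberellin and abscisic acid responses in aleurone, read 514.4 and 908.7 on the overexpressor arrays and 1894.8 and 1694.0 on the control arrays. Overexpressor replicate 1 was the lowest of the 4 and replicate 2 lay between it and the controls. The means were 712 ± 279 in the overexpressor and 1794 ± 142 in the control (SD, n = 2 each), which is 2.52-fold lower, with a log2 change of -1.38. With all 4 arrays and the deposited scaling this was the largest of the 4 differences on the log2 scale, but without overexpressor replicate 1 that of WRKY62 was larger (1.06). WRKY24 also had the largest spread: the overexpressor arrays differed by 0.82 on the log2 scale, a gap that 94.1% of tested probe sets did not exceed. Without overexpressor replicate 1 the log2 change was -0.98, and without replicate 2 it was -1.79.

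WRKY71, a partner of WRKY51 in the repression of alpha-amylase genes, was measured by 2 probe sets. The brighter one read 4240.1 and 5671.6 on the overexpressor arrays and 9087.7 and 9121.9 on the control arrays, with means of 4956 ± 1012 and 9105 ± 24.2 (SD, n = 2 each). The 2 controls were nearly equal, and both overexpressor arrays were lower, replicate 1 more so than replicate 2. The log2 change was -0.89, or 1.84-fold lower. The dimmer probe set read 771.1 and 1325.2 on the overexpressor arrays and 2206.6 and 2344.4 on the control arrays (log2 change -1.17, 2.17-fold lower). Both probe sets thus put the samples in the same order of groups, with overexpressor replicate 1 lowest in each. The log2 ratio of the brighter to the dimmer probe set was 2.46 and 2.098 on the overexpressor arrays and 2.04 and 1.96 on the control arrays. The size of the WRKY71 difference therefore depended on the probe set, and the dimmer one also depended more on single arrays, with -0.78 without overexpressor replicate 1 and -1.56 without replicate 2.

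WRKY51, which binds WRKY71 and represses the same aleurone genes with it, had the smallest difference and the closest replicates. It read 1045.4 and 1066.8 on the overexpressor arrays and 1625.8 and 1647.6 on the control arrays, with means of 1056 ± 15.1 and 1637 ± 15.4 (SD, n = 2 each). The log2 change was -0.63, or 1.55-fold lower. The overexpressor arrays differed by 0.03 on the log2 scale, a gap that only 8.13% of tested probe sets did not exceed, so the spread seen in WRKY24 and WRKY71 was not shared by WRKY51. Its log2 change was between -0.64 and -0.62 when any 1 array was left out.

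WRKY62, the XA21-binding repressor of defence, read 828.2 and 974.4 on the overexpressor arrays and 486.4 and 448.1 on the control arrays. Both overexpressor arrays were higher than both controls, with means of 901 ± 103 and 467 ± 27.1 (SD, n = 2 each). The log2 change was 0.94, or 1.93-fold higher, and it was between 0.82 and 1.06 when any 1 array was left out.

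**Figure D1:**
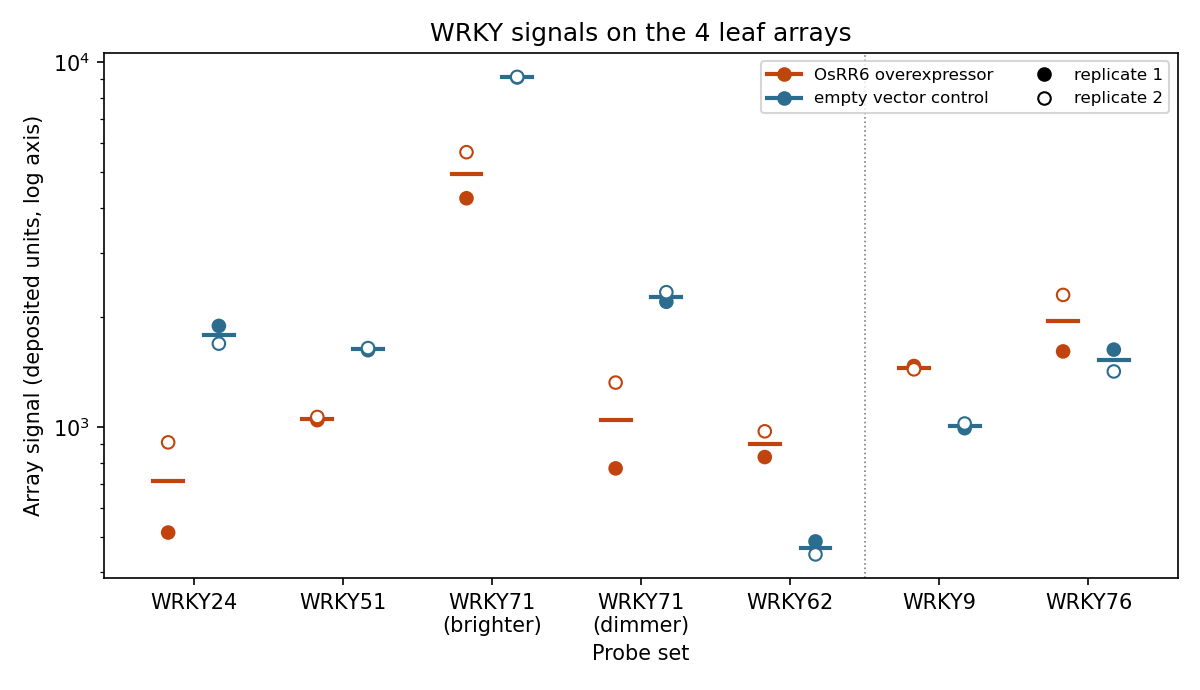
Array signal (vertical log axis, deposited units) of each WRKY probe set on the 4 arrays, with filled points for replicate 1, open points for replicate 2 and a bar for the mean of each group. WRKY24, WRKY51 and both WRKY71 probe sets lie lower in the overexpressor, WRKY62 lies higher, and right of the dotted line WRKY9 lies higher while the groups of WRKY76 overlap.

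Ratios of 2 probe sets on the same array are not moved by a scaling of whole arrays. They are made from the same signals that chose the genes and are given as a description, which shows unequal change and not the direction of either transcript. The log2 ratio of WRKY62 to WRKY24 was 0.69 and 0.10 on the overexpressor arrays and -1.96 and -1.92 on the control arrays, a shift of 2.33. WRKY62 over the brighter WRKY71 probe set was -2.36 and -2.54 on the overexpressor arrays and -4.22 and -4.35 on the control arrays, a 3.57-fold increase of the ratio. WRKY62 over WRKY51 was -0.34 and -0.13 on the overexpressor arrays and -1.74 and -1.88 on the control arrays, a 2.98-fold increase. The single differences kept their sign under every scaling tried (quantile, cyclic loess, median centring and the hybridisation spikes), but their size moved: WRKY51 was between -0.73 and -0.32, WRKY24 between -1.49 and -1.07, the brighter WRKY71 probe set between -0.99 and -0.58, and WRKY62 between 0.84 and 1.25. In each range the value nearest 0 for the lower genes, and farthest from 0 for WRKY62, came from spike scaling, which moved the median change of all tested probe sets to 0.39, against 0.08 with the deposited scaling.

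**Figure D2:**
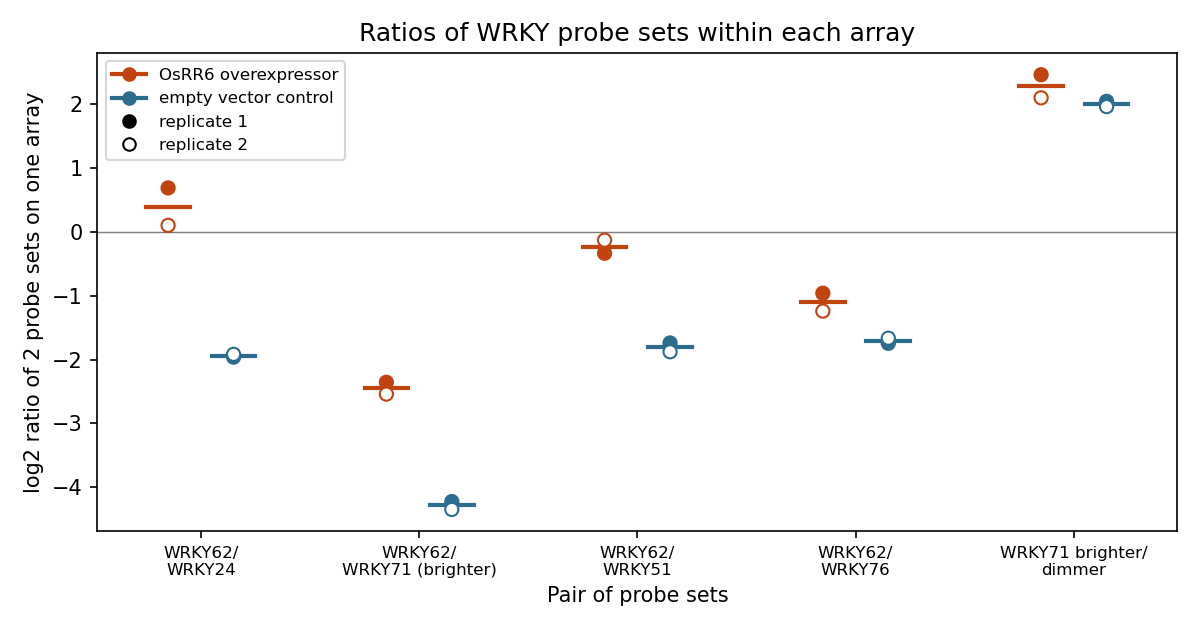
Log2 ratio of 2 probe sets on the same array (vertical axis) for 5 pairs, with filled points for replicate 1, open points for replicate 2 and bars for group means. All 3 ratios of WRKY62 to a lower gene are higher in the overexpressor, by 1.58 to 2.33 on the log2 scale, and the ratio of the 2 WRKY71 probe sets moves by 0.28.

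**Figure D3:**
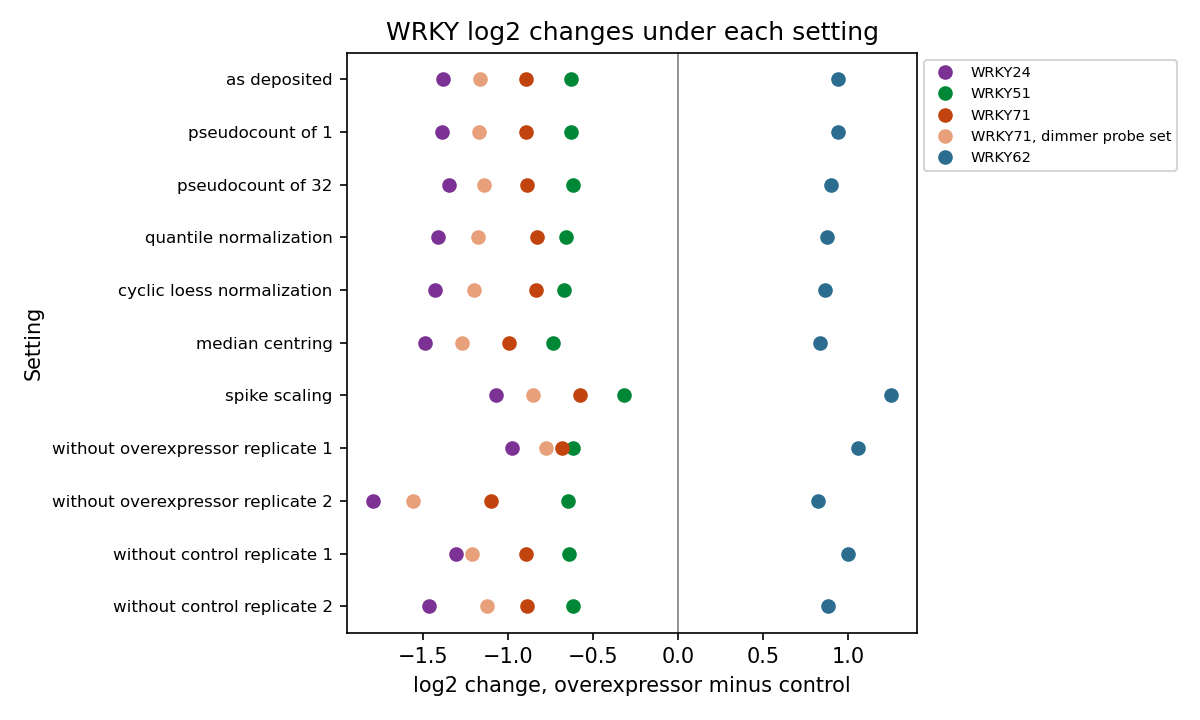
Log2 change (horizontal axis, overexpressor minus control) of each WRKY probe set with the deposited values and under 10 other settings, 1 row per setting. No point of WRKY24, WRKY51 or WRKY71 crosses 0 and neither does any of WRKY62, while leaving out 1 overexpressor array moves WRKY24 between -1.79 and -0.98. Since the groups did not overlap, leaving out 1 array or changing the pseudocount could not move a point across 0.

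The gene table gives a WRKY name to only 6 genes, so 2 others could be set beside these 4. WRKY9 rose, with 1471 and 1441 on the overexpressor arrays and 994 and 1024 on the control arrays (log2 change 0.53, SE 0.10, adjusted p = 0.0103 in limma). It missed the threshold without control replicate 1 (adjusted p = 0.118) and without control replicate 2 (adjusted p = 0.0919). WRKY76, which acts with WRKY62 in dampening defence in rice, lies next to WRKY62 in the gene table. It read 1613 and 2304 on the overexpressor arrays and 1632 and 1422 on the control arrays, so the groups overlapped (log2 change 0.34, SE 0.18, 95% interval -0.09 to 0.77, adjusted p = 0.20). It passed after spike scaling (0.65, adjusted p = 0.0143). When any 1 array was left out, its log2 change was largest without overexpressor replicate 1 (0.60) and smallest without overexpressor replicate 2 (0.08). The log2 ratio of WRKY62 to WRKY76 was -0.96 and -1.24 on the overexpressor arrays and -1.75 and -1.67 on the control arrays. The difference between the changes of these neighbours was not tested. Within 2 positions of the 4 genes the table holds 16 neighbours, of which 8 were tested. Higher was 1 of these, lower were 2 and the other 5 missed the threshold, where 28.5% of all probe sets passed in either direction (15.4% higher and 13.1% lower).

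Among 2204 other genes with a name, those whose 4 log2 values lay closest to each WRKY gene were found by Euclidean distance after centring each gene on its own mean. For WRKY24 these were BC1L6, a COBRA-like gene (distance 0.13), CPS1, of gibberellin synthesis (0.21), and 4CLL7, a gene resembling 4-coumarate-CoA ligases (0.22). BC1L6 read 137.6 and 277.6 on the overexpressor arrays and 541.9 and 468.7 on the control arrays, with replicate 1 lowest as in WRKY24. The closest to WRKY71 were ARF1, an auxin response factor gene also called ARF16 (0.04), CHL9, a subunit of magnesium chelatase (0.04), and opda, an oxophytodienoate reductase gene (0.05). ARF1 read 522 and 721 on the overexpressor arrays and 1138 and 1120 on the control arrays. The closest to WRKY51 were CHLH, another magnesium chelatase subunit (0.03), the glutaredoxin gene GRXS5 (0.03) and NDH-M, a subunit of the chloroplast NDH complex (0.03). For WRKY62 they were AP25 (0.08), the calmodulin-like gene CML11 (0.09) and the aquaporin gene TIP2;2 (0.14). With 4 arrays, such closeness mainly says that genes differed by a like amount between the groups. Among the WRKY genes themselves WRKY51 and WRKY71 were the closest pair (0.38) and WRKY24 and WRKY62 the farthest apart (2.36).

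Genes of 5 pathway lists moved in both directions. Whether each listed gene acts with these WRKY proteins was not tested. Of 76 tested genes in these lists 11 were higher and 12 were lower, with a median log2 change of 0.0017, against 15.4% higher, 13.1% lower and a median of 0.08 over all tested probe sets. The lists hold genes with a matching symbol or synonym only. Spike scaling moved log2 changes upward, which put NH3 at -0.53, MPK8 at -0.43, gid1 at 0.76, XA5 at 0.70 and WRKY9 at 0.84, all still past the threshold, while NH1, NH2, MAPKK1 and CEBIP lost their calls.

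Genes of salicylic acid signalling included 6 tested NPR1-like genes, of which 3 fell and 3 missed the threshold. Of all tested probe sets 13.1% were lower. NH1, the rice counterpart of the salicylic acid regulator NPR1, read 784.9 and 781.0 on the overexpressor arrays and 1161.8 and 1218.9 on the control arrays (log2 change -0.60, SE 0.10, adjusted p = 0.00834 in limma). Its relatives NH3 (-0.84, adjusted p = 0.00328) and NH2 (-0.57, adjusted p = 0.00553) were lower too. The other NPR1-like genes, NH5 (0.24, adjusted p = 0.189), NH4 (-0.18, adjusted p = 0.329) and NPR4 (-0.06, adjusted p = 0.753), did not pass and are named after their values were seen. NH5 passed as higher after spike scaling (0.56, adjusted p = 0.0113), and NH4 (0.13) and NPR4 (0.25) were above 0 after spike scaling. Without overexpressor replicate 1 the log2 change of NH5 was 0.37. SGT1, a co-chaperone of immune receptors, was the 1 gene of this list that rose, with 7851 and 6490 in the overexpressor and 4629 and 4903 in the control (0.58, SE 0.11). Over the list's 18 tested genes, 1 rose, 3 fell and 14 missed the threshold, with a median of 0.0062. The share past the threshold was 22.2%, beside 28.5% of all tested probe sets. NH1 missed the threshold without either control array (adjusted p = 0.0818 and 0.107) and after spike scaling (-0.29, adjusted p = 0.0786). NH2 missed it without control replicate 1 (0.0576) and after spike scaling (-0.26, adjusted p = 0.082), and SGT1 without control replicate 1 (0.0747).

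Mitogen-activated protein kinases phosphorylate WRKY proteins in defence signalling, and of 16 tested genes of this cascade 5 fell, 1 rose and 10 missed the threshold (median -0.19). The share past the threshold was 37.5%, beside 28.5% of all tested probe sets. MPK14 fell to 2298 and 2785 on the overexpressor arrays, against 5051 and 5169 on the control arrays (log2 change -1.01, SE 0.11, adjusted p = 0.00179). The kinase gene listed as MAPK6 and MPK7 (LOC4339633) fell to 2048 and 2891 on the overexpressor arrays, against 5176 and 5024 on the control arrays (-1.07, SE 0.16). A second gene that carries the name MAPK6, LOC4340170, did not pass (-0.14), and its log2 change was -0.22 without overexpressor replicate 1. MPK8 (-0.74) and the kinase kinase gene MAPKK1 (-0.57) were also lower. The 1 higher gene, BIMK2, is named after its value was seen (0.95, SE 0.17, adjusted p = 0.00958). MAPKK1 missed the threshold without control replicate 2 (adjusted p = 0.0778) and after spike scaling (-0.25, adjusted p = 0.10), and BIMK2 without control replicate 1 (0.0724). MPK14, MPK8 and LOC4339633 passed under all 14 settings tried for them.

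The next list held gibberellin synthesis and signalling genes beside alpha-amylase genes, of which the latter are the kind that WRKY24, WRKY51 and WRKY71 repress in aleurone. In it 14 genes were tested, of which 2 rose, 1 fell and 11 missed the threshold (median -0.07). The share past the threshold was 21.4%, beside 28.5% of all tested probe sets. The alpha-amylase gene AMY1.5 read 341.9 and 237.8 on the overexpressor arrays and 114.7 and 114.1 on the control arrays (log2 change 1.29, SE 0.24, adjusted p = 0.0111). It missed the threshold without control replicate 1 (0.0558) or control replicate 2 (0.0518). AMY1.3, the other tested amylase gene, named after its values were seen, did not pass, with 73.9 and 54.4 on the overexpressor arrays and 115.8 and 121.1 on the control arrays (log2 change -0.86, SE 0.30, adjusted p = 0.075). It passed as lower when limma was run without a trend in the spread (adjusted p = 0.046). Without overexpressor replicate 1 its log2 change was -1.07. The amylase genes AMY1.1, AMY1.2 and AMY1.4 were at or below background on all 4 arrays. The gibberellin receptor gene gid1 rose by 0.45 (SE 0.08, adjusted p = 0.00933), though not without control replicate 1 (0.101) or control replicate 2 (0.106). CPS1, the first enzyme of gibberellin synthesis, fell to 119.0 and 177.7 on the overexpressor arrays, against 434.8 and 396.2 on the control arrays (-1.49, SE 0.23, adjusted p = 0.0061).

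Diterpenoid phytoalexins are antimicrobial compounds of rice leaves, and their synthesis genes ran in both directions. Of the 14 tested, 4 rose, 2 fell and 8 missed the threshold (median 0.92). This median lies between CYP99A3 (0.67) and CYP99A2 (1.17), named after their values were seen, and both rested mostly on overexpressor replicate 1. CYP99A3 read 535.9 and 227.2 on the overexpressor arrays and 199.6 and 238.6 on the control arrays. CYP99A2 read 455.9 and 137.2, against 102.6 and 117.5. The share past the threshold was 42.9%, beside 28.5% of all tested probe sets. The cytochrome P450 genes CYP76M7 (log2 change 2.74, SE 0.43, adjusted p = 0.00616) and CYP71Z7 (1.65, SE 0.25, adjusted p = 0.00542) rose, and CYP71Z6 fell to 178.1 and 267.0 on the overexpressor arrays, against 1122.5 and 1275.8 on the control arrays (-2.44, SE 0.21, adjusted p = 0.000838). KSL5, a diterpene synthase gene, fell by 1.15 (SE 0.22, adjusted p = 0.0124), though not without control replicate 1 (0.0999) or control replicate 2 (0.0745). CYP76M7 read 589.5 and 298.5 on the overexpressor arrays and 84.7 and 42.1 on the control arrays. The summed signal of the list was 6871 and 3268 on the overexpressor arrays and 4799 and 4377 on the control arrays, so it was highest on overexpressor replicate 1, the array on which WRKY24 and WRKY71 were lowest, and lowest on overexpressor replicate 2. The counts depended on these arrays: 2 genes were higher and 4 lower without overexpressor replicate 1, and 8 higher and 3 lower without overexpressor replicate 2. Leaving out control replicate 1 or control replicate 2 gave 2 higher and 1 lower in either case.

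Immune receptor and resistance genes passed at a share of 28.6%, beside 28.5% of all tested probe sets: 14 were tested, of which 3 rose, 1 fell and 10 missed the threshold (median 0.05). XA5, a subunit of a general transcription factor (log2 change 0.39, adjusted p = 0.0176), LYP4, a receptor-like protein for peptidoglycan and chitin (0.65, adjusted p = 0.0338), and XA13, a sugar transporter used by a bacterial pathogen (1.12, adjusted p = 0.0391), rose. CEBIP, the chitin-binding receptor protein, fell to 260.2 and 386.5 on the overexpressor arrays, against 526.0 and 533.0 on the control arrays (-0.73, SE 0.21, adjusted p = 0.0427). All 4 calls ended without control replicate 1 (adjusted p between 0.104 and 0.176) and without control replicate 2 (between 0.0917 and 0.177). XA13 had a log2 change of 0.59 without overexpressor replicate 2, and CEBIP one of -0.45 without overexpressor replicate 1. After spike scaling CEBIP missed the threshold (-0.42, adjusted p = 0.12). All 4 missed it when limma was run without a trend in the spread (adjusted p between 0.0755 and 0.111). LYP4, XA13 and CEBIP missed it without the filter on low signal (between 0.0587 and 0.0785). After median centring LYP4 (0.0693) and XA13 (0.0604) did, and XA13 also after quantile normalization (0.0511).

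**Figure D4:**
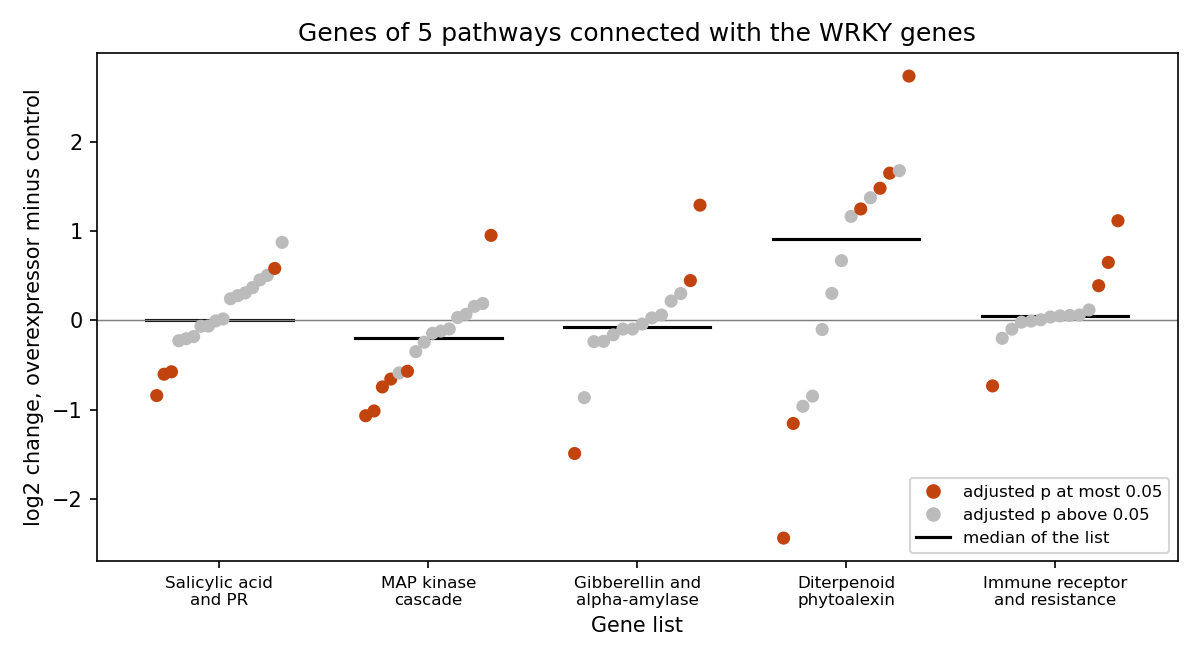
Log2 change (vertical axis, overexpressor minus control) of each tested gene in 5 pathway lists, sorted within a list, with coloured points for an adjusted p of at most 0.05, grey points for the others and a line at the median. The medians lie between -0.19 (kinase cascade) and 0.92 (phytoalexin), and each list holds genes past the threshold in both directions.

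Markers of leaf and of other tissues were set beside these WRKY differences, and only part of them moved between the groups. Their counts stand beside 13.1% of all tested probe sets that were lower and 15.4% that were higher. Of the 8 tested green leaf markers 3 were lower and 5 did not pass, and the summed signal of the 9 measured was 178592 and 168162 on the overexpressor arrays and 235200 and 251795 on the control arrays, with RBCS1 at background. Of 6 anther and tapetum markers 4 were lower and 2 did not pass. Their sum was 1218 and 718 on the overexpressor arrays and 14252 and 14905 on the control arrays, and the tapetum gene RTS was at background on the overexpressor arrays only (10.8 and 3.8, against 3702 and 4044 in the control). All 4 stem and secondary wall markers were lower, with sums of 10869 and 9977 on the overexpressor arrays and 14127 and 14265 on the control arrays. The calls of CESA4, CESA7 and CESA9 in this list, and of the leaf marker PORB, ended without control replicate 1 (adjusted p between 0.0851 and 0.222), without control replicate 2 (between 0.107 and 0.317) and after spike scaling (between 0.326 and 0.677). BC1 lay just beyond the threshold without control replicate 1 (adjusted p = 0.05). The root list came down to Lsi1, which was lower (log2 change -2.19), with 283.0 and 490.7 on the overexpressor arrays and 1666.6 and 1756.1 on the control arrays. Of 7 endosperm and aleurone markers 4 were at background on all arrays, and their sum was 677.9 and 677.6 on the overexpressor arrays and 636.6 and 743.1 on the control arrays. The part of these tissue differences in the WRKY values was not tested.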

How the data were processed

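The deposited table holds the authors' intensity of each probe set on each array, on a linear scale. Per the labels, about 10 µg of total RNA was made into biotinylated cRNA. The software and any detection calls are not given in the sources used here. Arrays already had a common trimmed mean and were kept as deposited.

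Genes came from the platform annotation (22436 probe sets with 1 gene, 95 with several, 34850 not listed), and every one of these genes was in RefSeq's table for assembly ASM3414082v1, used for names and neighbours only. After adding a pseudocount of 3.6 (the 10th percentile) and taking log2, 123 control probe sets and those with a mean under the median were left out, and the rest were fitted in limma 3.58.1 (R 4.3.3, eBayes with trend, Benjamini-Hochberg, threshold 0.05). A gene's brightest tested probe set stands for it. The procedure was tested on simulated data in which both groups had the same spread, unlike the array pairs measured here. Named genes were all WRKY genes, RR6, the nearest 3 per WRKY gene, and per list up to 4 past the threshold by p, otherwise the 2 brightest. The members and lists were chosen with earlier results of these data known. List matches taken in through a shared symbol were removed before list values were examined. Same-numbered arrays did not deviate together (correlation -0.02). The labels do not say whether such arrays were handled as pairs, and 1 correlation cannot decide it. The main fit had no term for the replicate number. Alternatives covered pseudocount, scaling, filter, spread model, replicate block, probe set choice and leaving out each array. Neighbours and within-array ratios were chosen after seeing the data.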

Additional observations from a re-analysis of the deposited data

How the results depend on the processing

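The sign of each WRKY difference held under all settings run for it. Since the groups did not overlap, leaving out 1 array or changing the pseudocount could not have changed a sign. Sizes moved by more than the replicate SD for WRKY51 under quantile normalization (-0.66), cyclic loess (-0.67), median centring (-0.73) and spike scaling (-0.32), and under spike scaling for WRKY71 (-0.58) and WRKY62 (1.25). Over all probe sets, 4410 were higher and 3760 lower, against 11533 and 2115 after spike scaling and 2580 and 2461 without the trend in the spread. Median centring gave 3016 higher and 4639 lower. Leaving out 1 array gave between 1390 and 6138 higher and between 1558 and 5297 lower. Of the other WRKY genes 1 was higher, against 2 after spike scaling and 0 to 2 leaving out 1 array. In the 5 pathway lists 11 genes were higher and 12 lower, against 30 and 7 after spike scaling, with 7 higher without the filter, 6 higher with a filter at the 75th percentile and 4 higher without the trend. Besides the immune receptor genes, SGT1 (adjusted p = 0.0628 in limma), MAPKK1 (0.0571) and gid1 (0.0571) missed the threshold without the trend. The markers PORB, CESA4, CESA7 and CESA9 missed it too (between 0.0756 and 0.102). Leaving out 1 array gave 2 to 18 higher and 7 to 20 lower. By list, the lowest and highest counts over all settings were 0 to 9 higher and 1 to 4 lower for salicylic acid, 0 to 3 and 3 to 8 for the kinase cascade, 0 to 5 and 0 to 2 for gibberellin, 1 to 8 and 1 to 4 for phytoalexin, and 0 to 8 and 0 to 2 for immune receptors. The endosperm marker GLUA-2 (-0.0065) changed sign after spike scaling (0.31) and ranged over -0.13 to 0.11 leaving out 1 array, positive without overexpressor replicate 1 or control replicate 2. After spike scaling NH4 (0.13), NPR4 (0.25) and the MAPK6 gene LOC4340170 (0.17) also changed sign. With the replicate block the WRKY values were the same by construction (WRKY24 -1.38, WRKY51 -0.63, WRKY71 -0.89, WRKY62 0.94), and 4236 probe sets were higher and 3695 lower. The block changed 1 call of the named single genes (CESA9, adjusted p = 0.0669). Of 564 values of 41 single genes under these settings, 58 lost the threshold, 31 of them when a control array was left out, 10 gained it and 6 changed sign. Fits without a control array took their spread from the overexpressor pair alone, whose median gap was 0.20 on the log2 scale, against 0.12 in the control pair. The cause of these shifts was not tested. Signals near background limit the dim genes of the lists, not the WRKY genes.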
